A study of Mus musculus with 2 samples.

Results

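The 7 genes of the insulin-like growth factor (IGF) binding protein family, Igfbp1 to Igfbp7, were taken by gene symbol from a mouse table of 35275 genes. Their reads were compared between hydrogen peroxide-treated and untreated AML12 cells. AML12 is a hepatocyte line made from the liver of a mouse that carried a human transforming growth factor alpha transgene, and the labels give a male CD-1 animal 3 months old as its source. Control cells ("Young" in the labels) received no peroxide, and senescent cells ("Old") were exposed briefly each day, over most of a week, to sublethal hydrogen peroxide. Cells of both kinds grew in complete medium with serum, insulin, transferrin, selenium and dexamethasone. Each peroxide exposure was in serum-free medium, and whether control cells had such periods is not stated. The part of this medium in the differences was not tested. The senescent state is that of 1 established line under an oxidant and was not reached by the ageing of an animal. Each condition was 1 RNAseq library made from pooled RNA of 3 samples, so no spread between replicates, no p-value and no standard error could be computed.

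IGF binding proteins are secreted proteins that hold IGF-I and IGF-II in blood and tissue, limit their access to the IGF-I receptor and release them when proteases cut the binding protein. Members 1 to 6 bind the growth factors tightly, whereas Igfbp7 binds them weakly and is also known as a component of the senescence-associated secretome. In liver, hepatocytes are the classical source of Igfbp1, which insulin represses, and other members come in part from non-parenchymal cells.

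Counted reads came to 28021941 in control cells, spread over 17403 genes, and to 25738075 over 17592 genes in senescent cells. Each of the 13 hepatocyte markers had at least 10 reads over both libraries, and albumin (Alb) had 32076 in control and 2917 in senescent cells. The markers ranged widely, from 16 and 14 reads of the fibrinogen gene Fgb to 119403 and 144783 of the keratin gene Krt8. None of the 10 senescence and proliferation genes on the list passed the threshold for a difference, and their median log2 ratio was 0.13. The cyclin-dependent kinase inhibitor Cdkn1a had a log2 ratio of 0.90 and the inhibitor Cdkn2a -1.32. The proliferation genes lay on both sides of 0, with -0.79 for Mki67, -0.38 for Ccna2, 0.09 for Ccnb1, 0.18 for Top2a and 0.19 for Cdk1. Fgb, Cdkn2a, Ccna2, Ccnb1 and Cdk1 were named after their values were seen. To be called different, a gene needed a sum of at least 10 reads, a log2 ratio of scaled reads beyond 1.5, and a 95% counting interval that left out 0. Intervals cover counting error only, not spread between replicates, and are too narrow even for that where amplified reads are not independent molecules. Of 14383 genes tested, 390 (2.71%) were higher and 805 (5.60%) lower in senescent cells.

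Igfbp7 was lower in senescent than in control AML12 cells, by 3.22-fold after scaling. Igfbp3 had 2.24 times the scaled count of control cells and did not pass the threshold, and Igfbp4, the member with the most reads, had nearly the same scaled count in both. Of the 5 members with at least 10 reads, 0 were higher, 1 was lower (Igfbp7) and 4 did not pass, with a median log2 ratio of -0.20 against -0.02 over all genes tested. Igfbp1 and Igfbp2 were too low to test. A single call among 5 members is no result about the family as a group.

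**Figure D1:**
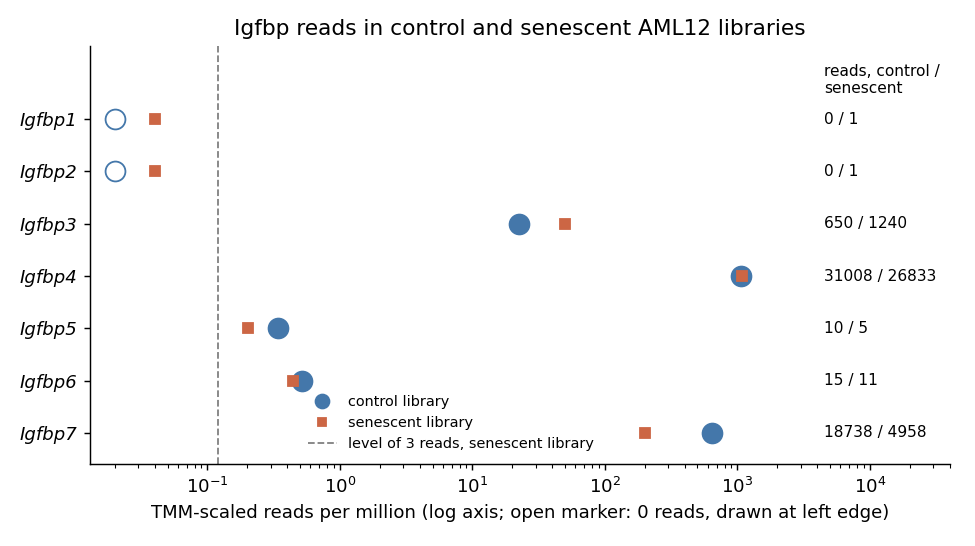
TMM-scaled CPM (x axis, log scale) of the 7 Igfbp genes in the control library (circles) and the senescent library (squares), 1 library each, with the read counts at the right. Open circles mark 0 reads and are drawn at the left edge, and the dashed line is the level of 3 reads in the senescent library. Igfbp3, Igfbp4 and Igfbp7 lie far to the right of the other 4 members, and the Igfbp4 symbols overlap.

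Igfbp7 (ENSMUSG00000036256) lies on the minus strand of chromosome 5 at 77349240 to 77408041 (GRCm38) and has 6 merged exon blocks totalling 1209 bases over a span of 58802 bases. Its promoter window, 250 bases before to 50 bases after the RefSeq start, is shown because it is the member that passed the threshold, with GC boxes (GGGCGG, either strand) in capitals. The window is chr5:77407996-77408295, minus strand, GRCm38.p6.

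Igfbp7: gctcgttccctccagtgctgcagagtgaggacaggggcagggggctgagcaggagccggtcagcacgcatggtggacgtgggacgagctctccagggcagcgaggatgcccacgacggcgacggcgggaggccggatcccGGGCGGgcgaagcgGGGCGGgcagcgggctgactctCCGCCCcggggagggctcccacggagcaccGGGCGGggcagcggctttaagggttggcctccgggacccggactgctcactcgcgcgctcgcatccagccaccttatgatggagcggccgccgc

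The control library held 18738 Igfbp7 reads and the senescent library 4958. In CPM, the counts scaled to library size by TMM, this was 644 and 199.9, which is 3.22-fold lower in senescent cells, with a log2 ratio of -1.69 (95% counting interval -1.73 to -1.64). Igfbp7 was thus a strongly read gene in both libraries, and only 4.64% of the genes tested had a lower ratio. Per length, as TPM (scaled reads over the length of the merged exons, set to the same total in both libraries), the level was 1747 in control and 519 in senescent cells, so that its rank among all genes moved from 57 to 273.

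**Figure D2:**
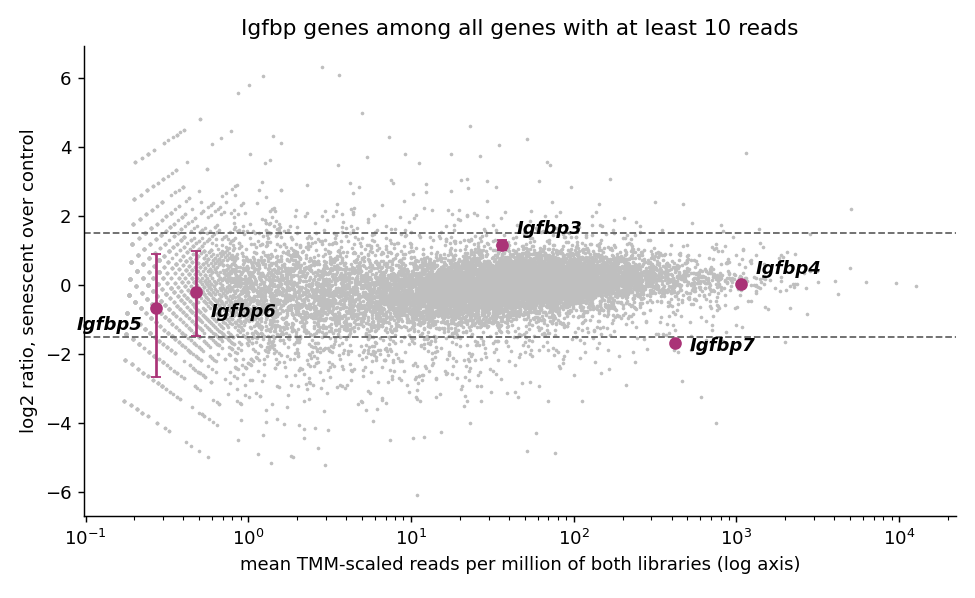
Log2 ratio of senescent over control (y axis) against the mean TMM-scaled CPM of both libraries (x axis, log scale) for the 14383 genes tested (grey) and the 5 tested Igfbp genes (purple, with 95% counting intervals). Dashed lines mark 1.5 in each direction. Igfbp7 at -1.69 lies below the lower line, Igfbp3 at 1.16 under the upper line, and Igfbp4 at 0.02 near 0.

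The 3 protein-coding genes nearest to Igfbp7 by Euclidean distance of log2 scaled reads over the 2 libraries were Spns2, Bicc1 and Pdia4. Spns2, a sphingosine-1-phosphate exporter, had 20253 and 4543 reads, a log2 ratio of -1.93 and a distance of 0.169. Bicc1, an RNA-binding protein, had 18880 and 4333 reads, a log2 ratio of -1.89 and a distance of 0.195. Pdia4, a protein disulfide isomerase of the endoplasmic reticulum, had 16272 and 5352 reads, a log2 ratio of -1.37 and a distance of 0.232, and did not pass the threshold. With 2 libraries, likeness here means only a similar level in each of them.

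Igfbp4 (ENSMUSG00000017493) lies on the plus strand of chromosome 11 at 99041244 to 99054392, with 8 merged exon blocks totalling 4416 bases. It encodes a binding protein that mostly inhibits IGF action and is cut by the metalloprotease pappalysin (Pappa). Its promoter window, chr11:99040994-99041293 on the plus strand, is shown for contrast with Igfbp7, with a TATA box (TATAAA) in capitals.

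Igfbp4: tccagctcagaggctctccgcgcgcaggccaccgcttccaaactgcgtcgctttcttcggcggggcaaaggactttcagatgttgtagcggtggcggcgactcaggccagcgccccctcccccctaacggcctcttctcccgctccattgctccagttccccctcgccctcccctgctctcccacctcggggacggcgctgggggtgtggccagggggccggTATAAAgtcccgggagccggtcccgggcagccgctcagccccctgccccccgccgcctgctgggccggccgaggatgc

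Igfbp4 had 31008 reads in control and 26833 in senescent cells. After scaling these were 1066 and 1082 CPM, a log2 ratio of 0.021 (-0.0026 to 0.045), in the middle of all genes tested at percentile 52.5. The sign of this small value depended on the scaling, with -0.086 by total counts and -0.018 by upper quartiles. Per length the level was 791 and 769 TPM, and the rank among all genes 176 and 167.

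Igfbp3 (ENSMUSG00000020427) lies on the minus strand of chromosome 11 at 7206086 to 7213923, with 5 merged exon blocks totalling 3130 bases. It encodes the main IGF carrier of serum, which circulates with IGF and the acid-labile subunit. Its promoter window, chr11:7213874-7214173 on the minus strand, is shown as the member with the highest ratio among those tested, and none of the motifs searched lies in it.

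Igfbp3: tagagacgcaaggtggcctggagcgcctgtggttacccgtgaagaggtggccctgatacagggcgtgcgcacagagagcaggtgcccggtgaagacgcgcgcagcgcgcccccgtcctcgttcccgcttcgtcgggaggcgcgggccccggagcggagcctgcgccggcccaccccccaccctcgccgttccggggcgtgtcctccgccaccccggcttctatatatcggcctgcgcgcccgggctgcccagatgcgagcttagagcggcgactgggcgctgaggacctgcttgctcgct

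Igfbp3 had 650 reads in control and 1240 in senescent cells. This was 2.24-fold higher (counting interval 2.03 to 2.46), a log2 ratio of 1.16 (1.02 to 1.30), which did not pass the threshold of 1.5. At a threshold of 1, 1 of the 5 tested members was higher, against 5.09% of all genes, and 1 was lower, against 9.98%. Of all genes tested, 95.4% had a lower ratio than Igfbp3. Per length, Igfbp3 stayed far under the other read-rich members, at 23.4 TPM in control and 50.2 TPM in senescent cells.

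Igfbp5 and Igfbp6 were close to the limit of detection. Igfbp5 (ENSMUSG00000026185; chromosome 1, 72857932 to 72874884, minus strand), which binds strongly to extracellular matrix, had 10 and 5 reads, with a log2 ratio of -0.67 (-2.67 to 0.91). Igfbp6 (ENSMUSG00000023046; chromosome 15, 102144362 to 102149511, plus strand), which prefers IGF-II, had 15 and 11 reads, with a log2 ratio of -0.20 (-1.49 to 1.00). Both intervals contain 0 and are wide, so neither a difference nor its absence could be shown at this depth. Per length, Igfbp6 had 1.52 and 1.25 TPM and Igfbp5 0.188 and 0.105 TPM.

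Igfbp1 (ENSMUSG00000020429; chromosome 11, 7197782 to 7202546, plus strand), the member that insulin represses through FOXO factors in hepatocytes, had 0 reads in control and 1 in senescent cells. Igfbp2 (ENSMUSG00000039323; chromosome 1, 72824503 to 72852474, plus strand), a binding protein of fetal liver and serum, likewise had 0 and 1. Both lie under the floor of 3 reads, which corresponds to 0.103 scaled CPM in control and 0.121 in senescent cells, and no fold was computed. The promoter window of Igfbp1, chr11:7197537-7197836 on the plus strand, is shown because it holds the CAAAACA core of the FOXO and insulin response element, in capitals, from -108 to -102 relative to the start.

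Igfbp1: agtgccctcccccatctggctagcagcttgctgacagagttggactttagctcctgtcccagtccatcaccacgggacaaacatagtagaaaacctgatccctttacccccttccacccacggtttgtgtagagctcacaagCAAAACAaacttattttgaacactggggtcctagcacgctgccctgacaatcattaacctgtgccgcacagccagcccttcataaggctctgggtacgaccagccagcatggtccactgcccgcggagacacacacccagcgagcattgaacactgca

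All 7 members matched a RefSeq promoter window, and Igfbp2 matched 2. The windows of the 3 read-rich members held 27 (Igfbp4), 33 (Igfbp7) and 37 (Igfbp3) CpG dinucleotides. Those of the other members held from 8 to 18, against a median of 7 over 32817 windows. GC content was 71.3% for Igfbp4, 73.3% for Igfbp7 and 71.7% for Igfbp3, against a median of 52.7% over all windows. Among the other members it ranged from 49.7% (Igfbp6) to 67.0% (1 of the 2 windows of Igfbp2). Motifs were searched on both strands, and no motif overlapped another in the windows of the members.

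Of the motifs searched, GGGCGG was in 35.6% of all windows, CCAAT in 37.4%, TATAAA in 13.6%, CACGTG in 7.15%, CAAAACA in 6.29%, TGACTCA in 5.20% and TGTTTAC in 3.65%. Igfbp7 held 4 GC boxes and Igfbp4 a TATA box from -28 to -23. A match describes letters in the window only, and no binding was measured.

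The order of the 2 most abundant members per length was opposite in the 2 libraries. In control cells the per-length level of Igfbp7 was 2.21 times that of Igfbp4, and in senescent cells 0.675 times. With the longest transcript as the length these ratios were 1.93 and 0.590. In reads without length the order was the same in both libraries, with fewer of Igfbp7 than of Igfbp4. The ratio of Igfbp7 to Igfbp4 reads, which needs no scaling between libraries, was 0.604 in control and 0.185 in senescent cells. This was 3.27-fold lower in senescent cells, a log2 change of -1.71 (-1.76 to -1.66).

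The reads of Igfbp3 made a larger ratio to both of the other read-rich members in senescent cells. The ratio of Igfbp3 to Igfbp4 reads went from 0.0210 to 0.0462, a log2 change of 1.14 (1.00 to 1.28). That of Igfbp3 to Igfbp7 reads went from 0.0347 to 0.250, which is 7.21-fold higher and a log2 change of 2.85 (2.71 to 2.99). These intervals are of log odds and cover counting error only.

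The mixture of Igfbp transcripts changed in composition and in sum. Igfbp7 made up 68.1% of the summed per-length level of the 7 members in control and 38.7% in senescent cells, Igfbp4 30.9% and 57.4%, and Igfbp3 0.913% and 3.74%. In scaled CPM without length the shares were 37.2% and 15.0% for Igfbp7, 61.5% and 81.2% for Igfbp4, and 1.29% and 3.75% for Igfbp3. The summed level was 2563 TPM in control and 1340 TPM in senescent cells, 1.91-fold lower. The size of this difference depended on the length used, and was 1.83-fold with the longest transcript and 1.30-fold in scaled CPM without length. Members took 50421 reads in control (0.180% of reads, exact binomial interval 0.178% to 0.182%) and 33049 in senescent cells (0.128%, 0.127% to 0.130%).

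**Figure D3:**
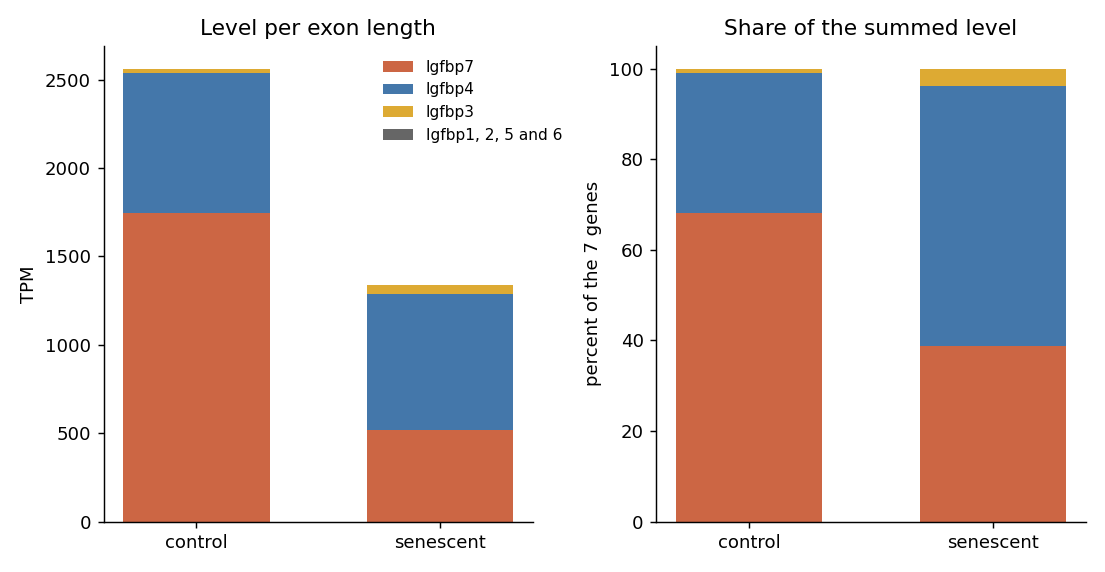
Stacked bars of the 7 Igfbp genes in the control and the senescent library, 1 library each, in the left panel as level per merged exon length (TPM) and in the right panel as percent of the summed level of the 7 genes. Igfbp1, 2, 5 and 6 are too small to see. Igfbp7 (68.1% in control, 38.7% in senescent cells per length) and Igfbp4 (30.9% and 57.4%) fill nearly all of each bar, and the per-length sum goes from 2563 to 1340.

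Of the 9 genes for ligands, receptors and the acid-labile subunit, 6 were tested, of which 0 were higher and 1 lower. Their median log2 ratio was 0.23. Over all genes tested, 2.71% were higher and 5.60% lower, with a median of -0.02. The receptors were read far more than the ligands. Igf1, the ligand made by hepatocytes in the liver, had 83 reads in control and 68 in senescent cells (log2 ratio -0.06, -0.54 to 0.42). Igf2 had 3 and 9 reads, a ratio of 3.52 with a counting interval of 0.878 to 20.2. With the prior count its log2 ratio was 1.51 (-0.19 to 4.34), past 1.5 in size, but the interval contained 0 and it was not called. Ins1 and Ins2, the insulin genes, had 0 reads in both libraries.

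The signalling receptor Igf1r had 1428 and 1752 reads (log2 ratio 0.52, 0.42 to 0.63). Igf2r, which clears IGF-II and also sorts lysosomal enzymes, had 1599 and 2557 reads, with 0.91 (0.82 to 1.00). Neither passed the threshold. The insulin receptor Insr had 2521 and 2066 reads, with -0.06 (-0.14 to 0.03), and its relative Insrr had 1 read in each library. Igfals, the acid-labile subunit that joins IGF and Igfbp3 in serum, was lower, with 60 reads in control and 14 in senescent cells and a log2 ratio of -1.80 (-2.82 to -1.01). Igfals and Igfbp3, which circulate in 1 complex, thus lay in opposite directions, with log2 ratios of -1.80 and 1.16, of which that of Igfals passed.

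Of 21 genes for proteases that cut IGF binding proteins, 14 were tested, of which 1 was higher and 3 lower. Their median was 0.55, and the shares over all genes were 2.71% higher and 5.60% lower. The complement proteases that also cut Igfbp5 were lower, with 418 and 15 reads of C1s1 (log2 ratio -4.49, -5.42 to -3.83) and 372 and 29 reads of C1ra (-3.41, -4.05 to -2.91). The metalloprotease Mmp19 had 339 and 94 reads and was also lower, at -1.61 (-1.97 to -1.29). Plg, the precursor of plasmin, had 0 reads in control and 18 in senescent cells. This was 7.04-fold higher when set against a floor of 3 reads, and the counting interval started at 5.16-fold. Members of the list with the most reads were the cathepsins Ctsd (20439 and 27489 reads, log2 ratio 0.66) and Ctsb (12448 and 17276, 0.70), Adam9 (6939 and 9098, 0.62) and Mmp14 (7160 and 5672, -0.11), and none of these passed. Pappa, the protease of Igfbp4, had 0 and 1 reads and Pappa2 had 0 in both, under the floor of 3 reads. These last genes, and Htra1, which at 90 and 217 reads had a log2 ratio of 1.49 just under the threshold, were named after their values were seen.

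Of 7 protease inhibitor genes, 5 were tested, of which 2 were higher and 0 lower. Their median was 0.48, and 2.71% of all genes were higher and 5.60% lower. Both that passed were stanniocalcins, which inhibit the pappalysins. Stc2 had 94 and 266 reads (log2 ratio 1.72, 1.39 to 2.09), and Stc1 6 and 26 reads (2.16, 1.03 to 3.92). The other 3 tested were Timp2 (8261 and 9839 reads, log2 ratio 0.48), Serpine2 (8289 and 3646, -0.96) and Timp1 (1242 and 1279, 0.27). The 2 genes called therefore had fewer reads than any of these.

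Of 13 other genes whose proteins carry an IGFBP domain, 8 were tested, of which 0 were higher and 3 lower, with a median of 0.21. Among all genes 2.71% were higher and 5.60% lower. All 3 list genes that were lower encode matricellular proteins of the CCN family. Ccn1 had 2506 and 583 reads, at -1.87 (-2.01 to -1.74), Ccn4 2177 and 464, at -2.00 (-2.15 to -1.86), and Ccn5 35 and 6, at -2.15 (-3.86 to -1.05). Ccn2, of the same family, had 19633 and 26898 reads and a log2 ratio of 0.68, and Crim1, a membrane protein that binds bone morphogenetic proteins, 2238 and 3747 reads and 0.97, and neither passed. The 3 Igf2 mRNA-binding proteins, which bind Igf2 transcripts and carry no IGFBP domain, had log2 ratios of 0.11 (Igf2bp1), 0.33 (Igf2bp2) and 0.70 (Igf2bp3), with a median of 0.33 and 0 of 3 past the threshold.

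**Figure D4:**
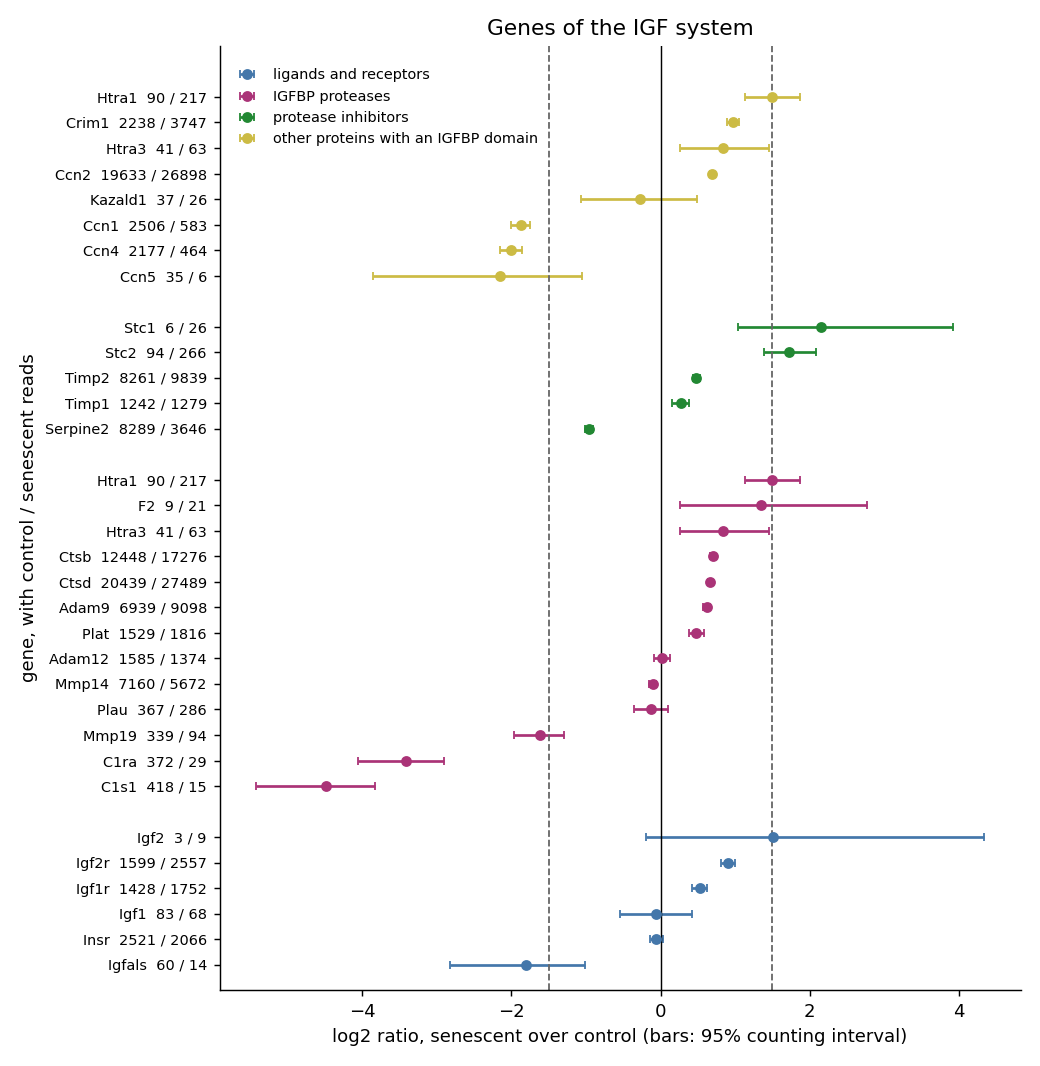
Log2 ratio of senescent over control (x axis), with 95% counting intervals as bars, for genes of 4 lists of the IGF system (y axis, with control and senescent reads), 1 library per condition. Dashed lines mark 1.5 in each direction, and Plg, with 0 control reads, is left out. Igfals, Mmp19, C1ra, C1s1, Ccn1, Ccn4 and Ccn5 lie left of the lower line, and Stc1, Stc2 and Igf2 right of the upper line. Igf2, at 1.51 (-0.19 to 4.34), was not called because its interval contains 0.

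Of 21 genes for binding partners of the family, 18 were tested, of which 0 were higher and 1 lower. Their median was -0.35, beside -0.02 over all genes, of which 2.71% were higher and 5.60% lower. The lower gene was Vtn, vitronectin, a matrix protein that binds Igfbp5, with 95 and 10 reads and a log2 ratio of -2.91 (-4.12 to -2.08). The members with the most reads did not pass and lay on both sides of 0. Fibronectin (Fn1) had 29310 and 10127 reads and osteopontin (Spp1) 25430 and 10580, with log2 ratios of -1.30 and -1.04, whereas the nuclear import receptor Kpnb1 had 19705 and 26154 (0.64) and the integrin subunit Itgb1 18545 and 23966 (0.60).

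Of 19 genes for transcription factors that act on Igfbp genes, 18 were tested, of which 1 was higher and 1 lower. Their median was 0.05, and the shares over all genes were 2.71% higher and 5.60% lower. Klf15 was lower, with 1504 and 418 reads and a log2 ratio of -1.62. Tfap2a was higher, with 90 and 232 reads and 1.58, a call that was lost when libraries were scaled by total counts. Atf4, a factor of the integrated stress response, had 4820 and 10151 reads and a log2 ratio of 1.30, Smad3 1.11, Sp1, which binds GC boxes, 0.37 and Trp53 0.26, and none of these passed.

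Of 12 insulin and FOXO target genes, 10 were tested, of which 1 was higher and 4 lower. Their median was -0.97, beside -0.02 over all genes, of which 2.71% were higher and 5.60% lower. Lower were Pdk4 (217 and 27 reads, log2 ratio -2.74), Ppargc1a (105 and 16, -2.42), Klf15 (-1.62) and Sesn3 (-1.56), and higher was Irs2, an adaptor of the insulin receptor, at 1.84. Irs2 and Pdk4 are both known as genes that insulin represses through FOXO1, and they lay in opposite directions. Igfbp1, a gene of the same kind, could not be tested. Insr, Angptl4 and Txnip, read more than most of the list, had log2 ratios of -0.06, 0.42 and -1.28 and did not pass.

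Reads of stellate, endothelial and macrophage markers were few in both libraries, whereas those of cholangiocyte markers were many, at 55165 in control and 35238 in senescent cells. Both libraries were of the AML12 line, and such reads do not show that cells of these types were present. Any part of other cell types in the Igfbp values was not tested. Of 9 stellate and fibroblast markers, 1 was tested, with 27 reads over the list in control and 9 in senescent cells. That gene was Col1a1, with 21 and 1 reads and a log2 ratio of -3.29 (-9.53 to -1.53), and 4 of the 9 had 0 reads in both libraries. Of 5 endothelial markers 0 were tested, with 5 and 13 reads over the list. The cells of origin of the 18738 and 4958 Igfbp7 reads cannot be read from such marker totals.

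Of 6 macrophage markers 3 were tested, of which 2 were higher, Ptprc (27 and 76 reads) and Csf1r (15 and 40), with 76 and 156 reads over the list, while Adgre1, Clec4f and Cd163 had 0 in both. With scaling by total counts 1 of these markers was higher, Csf1r no longer passing. Of 5 cholangiocyte markers 4 were tested and none passed, with a median of -0.53, and Krt19 had 22885 and 19177 reads and Epcam 0 and 1. With scaling by total counts 1 of them, Krt7, was lower. Of the 13 hepatocyte markers, 1 was higher (Cps1) and 2 were lower (Alb and Apoa1), with a median of 0.03. Beside these marker counts, 2.71% of all genes were higher and 5.60% lower. In bulk RNA, fewer cells of a type and less RNA per cell cannot be told apart.

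Among chromosomal neighbours of the members with at least 10 reads, only Adgrl3 passed the threshold. Gm11985, Tnp1 and Tns4, and the members Igfbp1 and Igfbp2, had too few reads to test. Of all genes tested, 2.71% were higher and 5.60% lower. Igfbp1 and Igfbp3 lie tail to tail, 3539 bases apart, with 0 and 1 reads against 650 and 1240. Igfbp2 and Igfbp5 lie tail to tail as well, 5457 bases apart, and both were near or under the floor. On the outer sides of these pairs, Gm11985 and Tnp1 had 0 reads in both libraries, while Tns3 had a log2 ratio of -0.16 and the ribosomal protein gene Rpl37a 0.22.

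Beside Igfbp4 lie Top2a, with a log2 ratio of 0.18, and Tns4, with 1 and 8 reads. Igfbp6 lies between Spryd3, at 0.45, and Soat2, at -0.43. Polr2b, a subunit of RNA polymerase II, overlaps the end of Igfbp7 by 85 bases on the opposite strand and had 3112 and 2940 reads, a log2 ratio of 0.15, so reads in the overlap could belong to either gene if strand was not used. On the other side of Igfbp7, Adgrl3 was higher, with 249 and 784 reads and a log2 ratio of 1.88, at a distance of 3612.1 kb.

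The call of Igfbp7 was lost at a threshold of 2, and its interval still lay under 0 (-3.29 to -0.09) when widened for a coefficient of variation of 0.4 between samples. That of Igfbp3 then contained 0 (-0.45 to 2.77).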

How the data were processed

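RNAseq was measured in 1 library per condition, each from pooled RNA of 3 AML12 samples. Per the labels, mRNA was captured on poly-T beads and primed with random hexamers. The authors deposited raw counts of reads per Ensembl gene, with no normalization. The submitters' processing notes name CASAVA, STAR, DESeq2, edgeR and the build mm10, and the counter, annotation and use of strand are not given in the sources used here. The 2 columns were assigned by the initials of the sample titles (Young, Old). GENCODE M21 on GRCm38 paired 34490 of 35275 identifiers (97.8%) with a symbol.

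Counts were scaled by TMM (edgeR 4.0.16, R 4.3.3). Log2 ratios used a prior count of 1 in proportion to library size, and 95% intervals are Clopper-Pearson intervals of the part of a gene's reads found in the senescent library. Per-length levels are scaled reads per merged exon length, set to a common total as TPM. With 1 library per condition edgeR's quasi-likelihood test and DESeq2's test had no residual degrees of freedom, and no p-values are given. A fold against 0 reads was computed against a floor of 3 reads and is not a lower limit. Computations used Python 3.11.15, numpy 2.4.6, pandas 2.3.3 and scipy 1.17.1, and plots matplotlib 3.10.9. Scripts were tested on simulated data. There the 95% counting intervals had a coverage of 95.0% without variation between samples and 30.1% at a coefficient of variation of 0.2. False calls numbered 32 and 74, and all 200 changed genes were recovered at both settings. How recovery depended on the size of a difference or on the number of reads was not tested. Promoter windows were RefSeq's (GRCm38.p6).

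The members and the 14 other gene lists were chosen with earlier results of these data known. Named were all members, every ligand and receptor gene, of each other list the genes called and up to 4 with the most reads, the 3 genes nearest to a called member, and the chromosomal neighbours of each member. Some read-rich list genes are given only in the counts, and 1 listed gene is not reported here. Alternatives were other scalings (DESeq2 1.42.0 size factors, upper quartiles, total counts), read minimums, prior counts, thresholds, lengths and intervals widened for variation between samples.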

Additional observations from a re-analysis of the deposited data

How the results depend on the processing

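No paired analysis was possible because each condition was 1 library, and for the same reason no replicate could be left out. Depth limited Igfbp1, Igfbp2, Igfbp5 and Igfbp6. Scaling by total counts moved the median of all genes by -0.11 on the log2 scale. Over all genes, 141 were higher and 395 lower with at least 100 reads, 259 higher and 602 lower with a prior count of 5, and 243 higher and 571 lower with intervals widened for a coefficient of variation of 0.4. At a threshold of 1 these counts were 732 and 1435, with 1 member higher, and at a threshold of 2 they were 219 and 460, with 0 members lower. The calls of Igfals, Plg, Stc1, Ccn5, Cps1, Csf1r and Col1a1 rested on fewer than 100 reads and were not made at that minimum. The summed Igfbp level had a log2 ratio of -0.88 with the longest transcript and -0.38 without length. Over the scalings and prior counts, the log2 ratio ranged from -1.80 to -1.69 for Igfbp7, from 1.05 to 1.16 for Igfbp3 and from -0.09 to 0.02 for Igfbp4. Neither the Igfbp7 ratio nor the summed Igfbp level reversed in sign under the alternatives run. For Igfbp7 the alternatives shifted the ratio too little to change its sign, so this lends the call no support. The signs of the genes on the other lists were not checked.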

Other observations

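Each of the tensin genes, which encode adaptors between integrins and actin, lies on a chromosome that also carries an Igfbp gene, and this was looked at after the values were seen. Tns1 had 13381 reads in control and 5472 in senescent cells, a log2 ratio of -1.06, Tns2 1947 and 1394 (-0.25), Tns3 4788 and 3665 (-0.16) and Tns4 1 and 8. None passed the threshold of 1.5, and Tns4 had too few reads to test.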
